A study of Mus musculus with 15 samples.

Results

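All 10 livers of mouse pups lacking the miR-379/miR-410 microRNA cluster (KO) were set against all 5 livers of wild-type littermates, out of 15 livers in all, to find changes that KO pups shared whatever their blood glucose. Membership came from the sample titles alone. The KO pups carried a deletion of the cluster inherited from the mother, on C57BL/6J, and all pups of both genotypes were studied on postnatal day 1 with free access to standard chow. They fell into 3 normoglycaemic and 7 hypoglycaemic KO pups by the titles, whereas by the series' own design text hypoglycaemia was mild in the former and severe in the latter. Wild-type pups had a blood glucose of 50 to 72 mg/dl, against 44 to 56 mg/dl in the normoglycaemic and 9 to 33 mg/dl in the hypoglycaemic KO pups. Each liver was hybridised to 1 single-colour Agilent array. The deletion was inherited, so it was not limited to the liver, and no label names a promoter or Cre.

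The miR-379/miR-410 cluster lies in the imprinted Dlk1-Dio3 domain, where microRNAs and long noncoding RNAs are made from the chromosome inherited from the mother. Dlk1, Rtl1 and Dio3 are protein-coding genes of the same domain that are made from the paternal chromosome. Deleting the maternal copy is therefore known to remove the cluster's products while the paternal copy stays silent. MicroRNAs lower the level or translation of messenger RNAs by pairing through their seed, bases 2 to 8. Mirg is a long noncoding RNA that hosts the microRNAs at the end of the cluster.

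The reference places 36 hairpins with 71 mature microRNAs between Mir379 and Mir410, over 34736 bases of chromosome 12 (GRCm38.p6), and 9 of the hairpins lie inside Mirg. The mature sequences hold 64 distinct seeds, and 7 seeds are shared by more than 1 of them. The sequences below, from RefSeq on GRCm38.p6, show both ends of the cluster and 3 of the shared seeds, with the seed in capitals. The arrays do not measure these microRNAs.
miR-379-5p: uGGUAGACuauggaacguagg
miR-1193-5p: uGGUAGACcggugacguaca
miR-379-3p: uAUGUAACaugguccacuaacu
miR-411-3p: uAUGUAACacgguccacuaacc
miR-494-5p: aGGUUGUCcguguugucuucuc
miR-410-5p: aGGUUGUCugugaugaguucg
miR-410-3p: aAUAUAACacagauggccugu

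What the arrays do measure is the cluster's host RNA, and the probes below are among those that carry the result. The first 2 are the array's Mirg probes and the third is the brightest other probe called in the Mirg interval, described further on. All are from chromosome 12 in mm9, the build of the array files. Cluster probe here means a probe of that interval. Probe positions were not placed against the hairpins, which are given on another build.
Mirg first probe, chr12:110987569-110987628: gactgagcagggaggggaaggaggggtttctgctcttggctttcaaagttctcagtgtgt
Mirg second probe, chr12:110979653-110979712: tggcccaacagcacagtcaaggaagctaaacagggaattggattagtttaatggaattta
Other cluster probe, chr12:110983688-110983747: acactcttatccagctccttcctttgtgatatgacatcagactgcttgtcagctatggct

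Levels are given as log2 of the processed spot signal over the array's own 75th percentile, and a difference of 1 is a doubling. The 75th percentile was 663 to 912 signal units and 57.9 to 76.2% of the probes were well above background across the arrays. Any 2 libraries correlated at 0.969 to 0.990 over genes. A gene's KO mean is the average of the normoglycaemic and the hypoglycaemic group mean, so that the 7 hypoglycaemic libraries do not outweigh the other 3. Over 27554 genes and transcripts the median difference of the KO mean and wild type was 0.01. The labels do not say that litters differed between pups, so p-values measure the spread between these livers, 1 pup each.

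Mirg fell in the KO livers. Its level was 1.07, 1.60, 0.88, 1.39 and 1.21 in the wild-type libraries and −2.80, −2.76 and −2.68 in the normoglycaemic KO libraries. In the hypoglycaemic KO libraries it ran from −3.02 over a median of −2.15 to 0.66. All 10 KO libraries lay below all 5 wild-type libraries, but the highest, hypoglycaemic replicate 2 at 0.66, lay close to the lowest wild-type library at 0.88. The KO mean was 3.51 lower on the log2 scale (−3.51, SE 0.47, 11.4-fold, adjusted p = 0.0469 in limma over 27554 genes). A 2-sided exact permutation test over all 360360 assignments of libraries to groups of these sizes gave p = 3.05e-05 for Mirg. The difference from wild type was −3.98 in the normoglycaemic and −3.05 in the hypoglycaemic group, and the 95% interval of the difference between the KO groups, −0.31 to 2.16, held 0. The direction held with each library left out, from −3.72 to −3.41, but the adjusted p then ran up to 0.249 and passed only without hypoglycaemic replicate 2. With blood glucose as a term in the model Mirg differed by −3.75, with an adjusted p of 0.233 in limma. Glucose nearly follows the groups, at 9 to 33 mg/dl in hypoglycaemic KO pups and 44 mg/dl or more in all others. Values with this term, here and below, therefore cannot tell genotype and glucose apart.

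The targeted transcript thus lay near wild type in 1 library labelled KO. The library labelled hypoglycaemic KO replicate 2 had Mirg at 0.66, where the other 6 of its group had −3.02 to −1.23. Over the 8 called probes of the Mirg interval it lay 0.75 below the wild-type mean, against 1.22 to 2.63 below in the other hypoglycaemic libraries and 2.52 to 2.72 below in the normoglycaemic ones. The mean over those probes was −2.59 in this library and −1.96 to −1.65 in the wild-type libraries, so it lay outside the wild-type range and nearer to it than any other KO library. Other genes placed this library in different ways. Ddit4 was at 5.71 in it, against 2.47 to 3.77 in wild type, and Tbx3 at 0.26, against 1.26 to 1.71. Both values lay within the range of its own group. Igf1 at 1.43 and Prlr at 0.17 lay within the wild-type ranges of 0.90 to 2.35 and −0.50 to 0.93. The pup's blood glucose was 16 mg/dl. The library keeps its label here, and the main results are given with and without it. Since it was singled out by its Mirg level, the Mirg value without it is a description.

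Many other probes across the Mirg interval fell with it. A long intergenic noncoding transcript (lincRNA) of the array's annotation, chr12:110973190-110987668_F, spans 14479 bases and holds both Mirg probes. Mirg itself spans 14478 bases in the reference. The lincRNA may therefore be Mirg under another name, and its fall is not taken as a separate result. Its kept probe of highest mean stands for it here. The others differed by −2.95 and −0.57 in the KO mean and were not called when probes were tested singly (adjusted p = 0.0779 and 0.701 in limma). The size of its change thus varied between probes. The probe used had levels of −1.14, −0.85, −1.31, −1.23 and −1.34 in the wild-type libraries and −2.97, −3.05 and −3.04 in the normoglycaemic libraries. In the hypoglycaemic libraries it ran from −2.78 over −2.42 to −1.43. The KO mean was −1.48 from wild type (SE 0.19, 2.79-fold, adjusted p = 0.0469 in limma), and no KO library reached the wild-type range. The change was larger in normoglycaemic than in hypoglycaemic livers, −1.85 against −1.12, with an interval of 0.23 to 1.23 for the difference between them and an adjusted p of 0.130 over all genes for that difference. The lincRNA lost its call in limma with any single library left out other than hypoglycaemic replicate 2 (adjusted p of 0.0597 to 0.249), with the slide as a block (0.0721) and with blood glucose as a term (0.232).

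**Figure D1:**
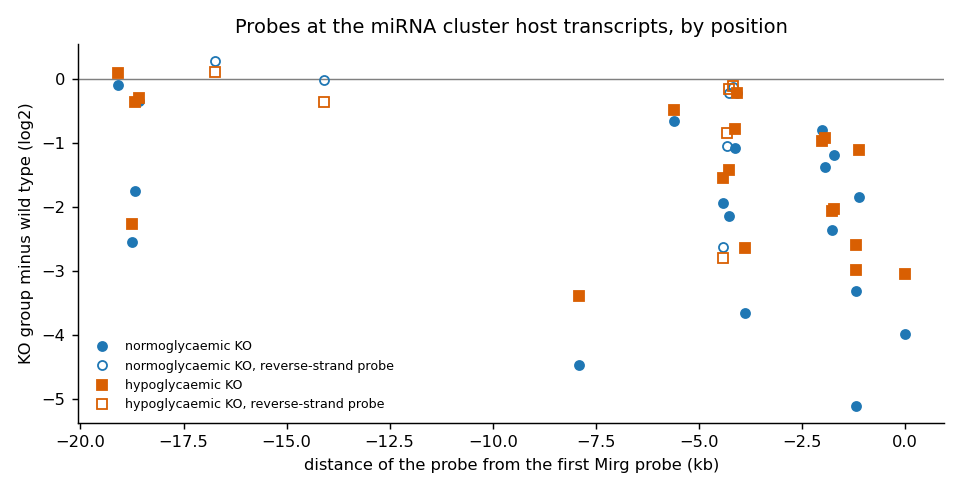
Difference of each KO group from wild type (log2, y axis) for every kept probe near the cluster, by its distance in kb from the first Mirg probe (x axis); filled symbols are normoglycaemic (circles) and hypoglycaemic (squares) KO, open symbols are probes on the reverse strand. In the KO mean all 20 probes of the Mirg interval lie below 0, the 15 others and the 5 reverse-strand probes alike, the latter from −2.71 to −0.12.

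When each of 41153 kept probes was tested on its own, an alternative added after the data were seen, 8 probes were called (0.0194%) and 0 of them lay outside this interval. They ran from base 110979653 to base 110987628 of chromosome 12 (mm9), and their KO means were −3.92 to −0.94 from wild type with adjusted p of 0.00217 to 0.0383 in limma. The 11 smallest p-values among all probes belonged to the interval. Of its 20 kept probes, 15 were not annotated to the reverse strand, all 15 were lower in the KO mean, and in 11 all KO libraries lay below all wild-type libraries. The brightest of these 15 outside Mirg, with a wild-type mean of 0.06, differed by only −0.22 (adjusted p = 0.765 in limma), and its libraries overlapped. Among the 5 reverse-strand probes 0 were called, but all 5 were also lower in the KO mean, from −2.71 to −0.12, and in 1 all KO libraries lay below all wild-type libraries. The 5 kept probes just before the interval gave 0 calls, with a smallest adjusted p of 0.743 in limma. By position their KO means differed from wild type by −0.0046, −2.40, −1.06, −0.33 and 0.19. The microRNA cluster is longer than Mirg, and only 9 of its 36 hairpins lie inside Mirg. These 5 probes are therefore not known to lie outside the cluster.

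Other genes of the domain did not pass. Meg3, a maternally made noncoding RNA, was 0.21 higher in the KO mean (SE 0.12, adjusted p = 0.770 in limma), with levels of 4.62 to 5.01 in wild-type, 4.91 to 5.31 in normoglycaemic and 4.58 to 5.36 in hypoglycaemic livers. Dlk1, a paternally made growth regulator, was 0.27 higher in the KO mean (SE 0.15, adjusted p = 0.773 in limma) with group differences of 0.27 and 0.28. Dio3, a deiodinase that switches off thyroid hormone, had a difference of −0.41 (SE 0.39) and Rtl1, a retrotransposon-derived gene, had −0.23 (SE 0.43). Rtl1 was well above background on 1 array in each group, so most of its values lie at background. Of the 14 measured genes on the list for this domain, 1 was called, Mirg.

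Over the whole array the KO mean differed from wild type in 2 of 27554 genes at an adjusted p under 0.05 in limma (0.00726%), 0 higher (0.0%) and 2 lower. Both lie in the Mirg interval and may be 1 transcript under 2 names. At an unadjusted p under 0.05 there were 1808 genes (6.56%), 967 higher (3.51%) and 841 lower (3.05%). The KO mean was above 0 in 54.0% and below 0 in 46.0% of all genes. A change was taken to be the same in both KO groups if it passed, had 1 sign in both, differed between them by less than 50% of the mean change and had a 95% interval of that difference that held 0. That left 1 gene, Mirg (0.00363%). In 53 genes (0.192%) no KO library overlapped a wild-type library, 26 above (0.0944%) and 27 below (0.098%). In data simulated with this design over 27554 genes, the fit called 40.3% of 67 genes changed 1.5-fold, 73.1% of 67 changed 2-fold and 90.9% of 66 changed 4-fold, and it called 12 genes that had not been changed. The simulated noise was normal and independent, the change was equal in all KO libraries, and no library or slide stood apart. These shares therefore do not say how many real changes of such sizes were missed.

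**Figure D2:**
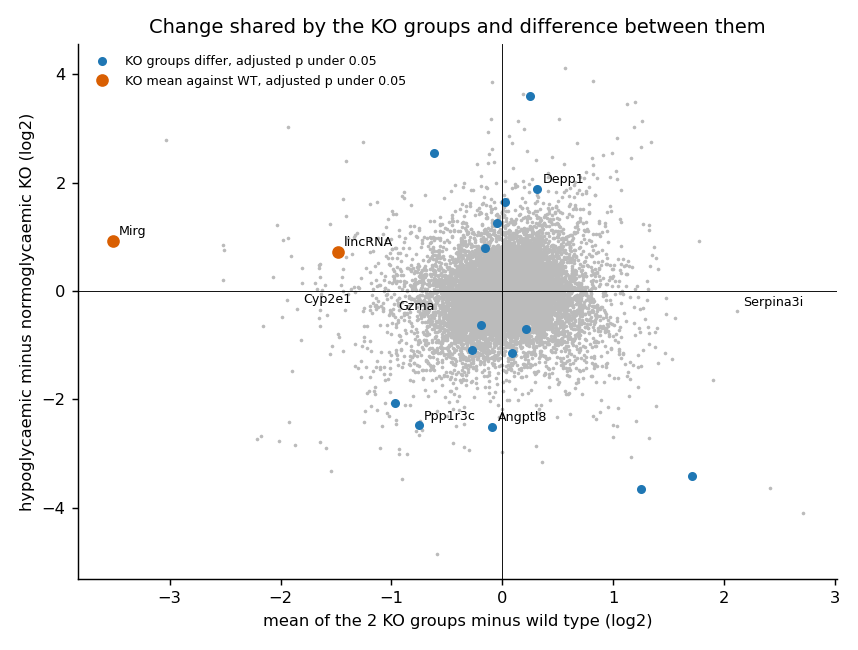
Difference of the mean of the KO groups from wild type (log2, x axis) against the difference of hypoglycaemic and normoglycaemic KO (log2, y axis) for each of 27554 genes, with genes called in either comparison at an adjusted p under 0.05 in colour. Mirg lies at −3.51 on the x axis and 0.93 on the y axis and the lincRNA at −1.48 and 0.73, while Ppp1r3c lies at −0.76 and −2.48 and Depp1 at 0.32 and 1.89.

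Without hypoglycaemic replicate 2, 7 genes were called (0.0254%), 1 higher (0.00363%) and 6 lower (0.0218%), and 3 met the rule for the same change in both groups (0.0109%), Mirg, Serpina3i and C1ra. Mirg then stood at −3.72 (SE 0.25). In all 5 genes that this added the left-out library lay within the wild-type range or next to it. Leaving a library out tends to add genes in which it lay near wild type. Its place in these 5 genes is therefore a description and no separate sign about the library.

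Serpina3i, a member of the antichymotrypsin-like serine protease inhibitor family, was at −2.35, −2.32, −2.22, −2.18 and −2.52 in the wild-type livers. It was at 0.34, 0.15 and −0.53 in the normoglycaemic livers and ran from −2.17 over a median of 0.27 to 0.41 in the hypoglycaemic livers. Every KO library lay above every wild-type library, replicate 2 by a margin of 0.01. The KO mean was 2.12 higher with all libraries (SE 0.40, adjusted p = 0.327 in limma) and 2.27 higher without replicate 2 (adjusted p = 0.0252 in limma). A second kept probe of this gene, of similar brightness (wild-type mean −2.24), differed by 0.21, with 0.22 and 0.20 in the groups, so the change rests on 1 of 2 probes. Serpina3 genes are close copies of each other, so a probe may read more than 1 of them.

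C1ra, a protease that starts the classical complement pathway, was at 3.73, 4.10, 3.79, 3.86 and 3.90 in the wild-type livers and at 2.87, 3.09 and 3.37 in the normoglycaemic livers. In the hypoglycaemic livers it ran from 2.55 over 2.80 to 4.00, the last being replicate 2, which overlapped wild type. Its KO mean was 0.83 below wild type with all libraries (−0.83, adjusted p = 0.601 in limma) and fell by 0.91 without replicate 2 (adjusted p = 0.0316 in limma). The group differences with all libraries were −0.77 and −0.89.

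Pon1, a paraoxonase carried on high-density lipoprotein, was 5.18 to 5.57 in wild-type, 4.35 to 4.81 in normoglycaemic and 3.89 to 5.45 in hypoglycaemic livers, and fell by 0.92 without replicate 2 (adjusted p = 0.0425 in limma). Fgf1, a fibroblast growth factor, was 1.69 to 2.63 in wild-type, 1.11 to 1.38 in normoglycaemic and −0.71 to 2.42 in hypoglycaemic livers, and fell by 1.62 without replicate 2 (adjusted p = 0.0252 in limma). Cd3g, a subunit of the T cell receptor complex, fell by 1.08 without it (adjusted p = 0.0316 in limma). With replicate 2 the adjusted p of these 3 genes was 0.465 to 0.671, and leaving out a different library gave 0 called genes in each of 14 cases. With the slide as a block as well as replicate 2 left out, Pon1 (adjusted p = 0.0723 in limma) and Cd3g (0.05003, just above the threshold) were not called, and Nr0b2, a nuclear receptor that represses bile acid synthesis, was.

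**Figure D3:**
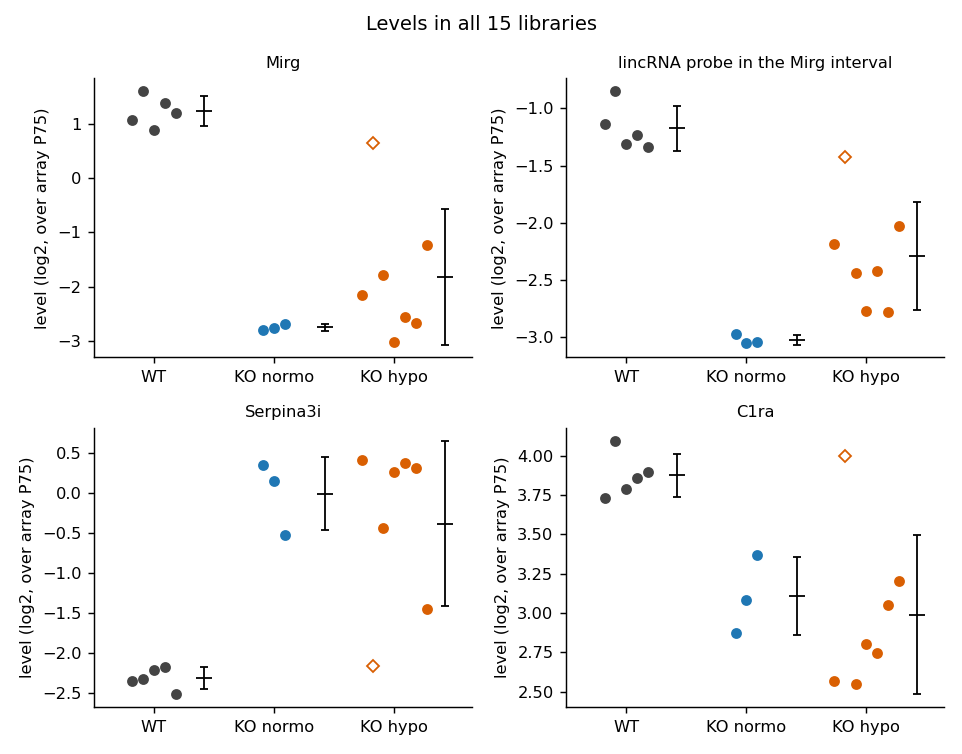
Levels (log2 over the array's 75th percentile, y axis) of Mirg, the lincRNA probe, Serpina3i and C1ra in each of the 15 libraries by group (x axis), with the group mean and SD beside the points; the open diamond is hypoglycaemic replicate 2. The diamond lies with or next to the wild-type points in all 4 panels, at 0.66 for Mirg and 4.00 for C1ra. Mirg singled this library out, and Serpina3i and C1ra were called only without it, so its place there is a description.

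Genes of natural killer and T cells were lower in the KO livers as a list, though none passed over all genes with all libraries. The fetal and newborn liver is known to hold such cells, whose granules carry granzymes. Of 20 measured markers all 20 were below 0 in the KO mean, with a median of −0.41 (−0.74 with blood glucose as a term) beside 0.01 over all genes, and 12 had an unadjusted p under 0.05 against 3.05% of all genes in that direction. The median was −0.23 in normoglycaemic and −0.71 in hypoglycaemic livers. The list was chosen with results of these data known, so its direction is a description. In bulk liver fewer cells of a type and less RNA per cell cannot be told apart.

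Gzma, a granzyme that cytotoxic cells release, was 4.41, 4.45, 4.04, 4.15 and 3.99 in wild-type and 3.21, 3.99 and 3.13 in normoglycaemic livers, and 2.45 over 3.00 to 3.83 in hypoglycaemic livers. No KO library reached the lowest wild-type library, though the nearest lay only 0.0044 below it. Its KO mean differed by −0.99 (SE 0.21, adjusted p = 0.464 in limma). Gzmb, a second granzyme, differed by −0.82 (SE 0.15, adjusted p = 0.327 in limma), and 1 normoglycaemic library at 0.33 lay among the wild-type values of 0.28 to 0.47. Cd7, a surface protein of T and natural killer cells, ran from −1.30 to −0.82 in wild-type, −1.88 to −1.67 in normoglycaemic and −2.30 to −1.38 in hypoglycaemic livers, without overlap. Cd7 had similar group differences, −0.73 and −0.87, and an adjusted p of 0.327 in limma.

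Receptor genes of the same cells had similar values. Klrd1 differed by −0.74, Klrc1 by −0.78 and Klra5 by −1.03, all receptors of natural killer cells, with adjusted p of 0.464 to 0.651 in limma. Ctsw, a protease of cytotoxic cells, differed by −0.50 and its libraries did not overlap. Not all such genes were low. Prf1, which encodes the pore-forming perforin, differed by −0.03 (SE 0.07). In normoglycaemic livers 4 of the 20 markers were above 0, among them Ncr1 at 0.16, and in hypoglycaemic livers 1 was. Cd3d, a T cell receptor subunit, differed by −0.37 (SE 0.24), near the list median. The mean level of the list was −1.26 to −0.98 in wild-type, −1.64 to −1.36 in normoglycaemic and −2.28 to −1.39 in hypoglycaemic libraries, and 14 of its 20 genes were well above background on every array.

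**Figure D4:**
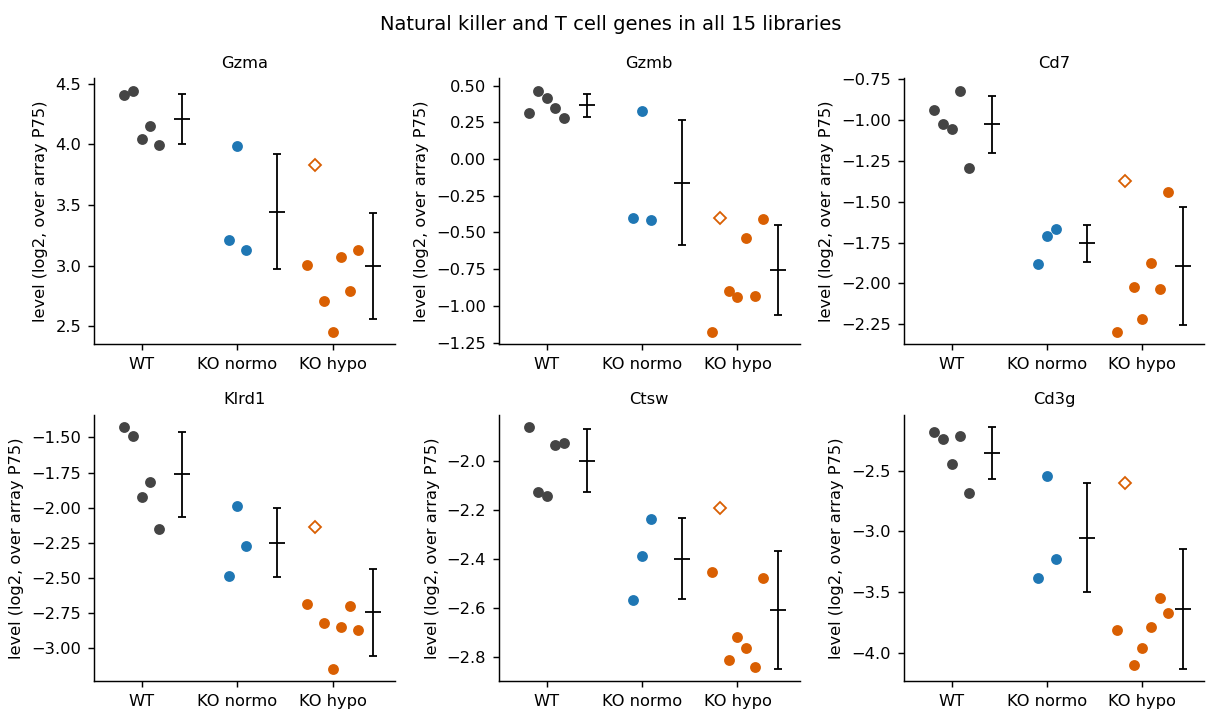
Levels (log2 over the array's 75th percentile, y axis) of 6 natural killer and T cell genes in each library by group (x axis), with group means and SDs; the open diamond is hypoglycaemic replicate 2. In the Gzma and Cd7 panels all 10 KO points lie below all 5 wild-type points.

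Some plasma protein and metabolic genes of hepatocytes were lower in both KO groups, and again none passed with all libraries. Of 38 measured coagulation and complement genes 35 were below 0 (median −0.24), against 46.0% of all genes, and 15 had an unadjusted p under 0.05 in that direction, against 3.05% of all genes, with medians of −0.13 in normoglycaemic and −0.39 in hypoglycaemic livers. F7, coagulation factor VII, differed by −0.67 (SE 0.17, adjusted p = 0.651 in limma), from 1.83 to 2.28 in wild-type to 1.52 to 1.69 in normoglycaemic and 0.73 to 2.03 in hypoglycaemic livers, where replicate 2 at 2.03 lay within the wild-type range. Of 43 drug-metabolising enzyme genes 35 were below 0 (median −0.27), against 46.0% of all genes, with medians of −0.07 in normoglycaemic and −0.56 in hypoglycaemic livers. With blood glucose, which nearly follows the groups, as a term in the model the list medians came to −0.02 for coagulation and complement and −0.04 for drug-metabolising enzymes. The 12 hepatocyte markers had a median of −0.05 and 0 of them an unadjusted p under 0.05. Alb, the gene of serum albumin, differed by −0.02 (SE 0.07) and Afp, of fetal alpha-fetoprotein, by −0.04 (SE 0.06), the latter turning to 0.0016 under quantile normalization.

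Cyp2e1, an ethanol- and drug-oxidising enzyme of the pericentral liver, showed similar differences in both groups, −1.69 and −2.01. Its levels were 8.21, 7.60, 7.36, 7.83 and 7.52 in wild-type and 5.59, 6.40 and 6.07 in normoglycaemic livers. In hypoglycaemic livers they ran from 4.32 over 5.82 to 8.03, and the last was replicate 2. The KO mean differed by −1.85 (SE 0.49, adjusted p = 0.651 in limma) and by −2.04 without replicate 2 (adjusted p = 0.0551 in limma). Cyp1a2, another pericentral enzyme, differed by −0.71 in normoglycaemic and −3.14 in hypoglycaemic livers, and Tbx3, a T-box factor of pericentral cells, by −0.27 and −1.09. Of 23 pericentral genes 16 were below 0, against 46.0% of all genes, and 7 of these had an unadjusted p under 0.05, against 3.05%. The median of this list was −0.18, and −0.15 with blood glucose as a term. It was −0.13 in normoglycaemic and −0.51 in hypoglycaemic livers, and 14 of the 23 genes differed between the KO groups at an unadjusted p under 0.05 in limma. The fall of this list was thus larger in hypoglycaemic livers.

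Adh4 and Rdh16, enzymes of alcohol and retinol oxidation, differed by −0.93 and −1.14, each with like values in both groups (−1.13 and −0.73 for Adh4, −1.24 and −1.04 for Rdh16). Bco2, which cleaves carotenoids, was −2.04 to −1.16 in wild-type, −2.32 to −1.97 in normoglycaemic and −2.69 to −2.17 in hypoglycaemic livers, and differed by −0.73 (SE 0.13, adjusted p = 0.327 in limma). Apol9b, an apolipoprotein L gene with close copies, differed by −1.42 (SE 0.29, adjusted p = 0.392 in limma) and its libraries did not overlap. Slc27a5, a bile acid ligase, differed by −0.46 in normoglycaemic and −0.47 in hypoglycaemic livers. Of 25 bile acid genes 18 were below 0, against 46.0% of all genes, with 8 at an unadjusted p under 0.05 in that direction, against 3.05%. Their median was −0.19, and −0.18 with blood glucose as a term. It was −0.11 in normoglycaemic and −0.20 in hypoglycaemic livers.

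Genes of protein folding in the endoplasmic reticulum had nearly equal medians in both KO groups, −0.24 and −0.21. Of 20 measured, 18 were below 0, against 46.0% of all genes, with 6 lower and 1 higher at an unadjusted p under 0.05, against 3.05% and 3.51% of all genes. The median of −0.26 came to −0.08 with blood glucose as a term. Edem1, which marks misfolded glycoproteins for degradation, differed by −0.24 (SE 0.09, adjusted p = 0.740 in limma). Of 24 genes of the growth hormone, IGF and prolactin receptor axis 20 were below 0, against 46.0% of all genes (median −0.19, and −0.36 with blood glucose as a term). The median was −0.13 in normoglycaemic and −0.24 in hypoglycaemic livers. At an unadjusted p under 0.05, 6 were lower and 1 was higher, against 3.05% and 3.51% of all genes. Igf1, the growth factor induced by growth hormone, differed by −0.53 and −1.34 and Prlr, the prolactin receptor, by −0.83 and −1.67.

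Genes that were higher in both groups did not pass either. Fkbp10, a collagen-folding enzyme, differed by 0.70 (SE 0.18, adjusted p = 0.601 in limma), with 0.65 and 0.75 in the groups. Gxylt1, a xylosyltransferase of Notch glycosylation, differed by 0.39 with 0.41 and 0.37, and Slc19a3, a thiamine transporter, by 0.71 with 0.71 and 0.70. The second kept probe of Slc19a3 differed by −0.74 in normoglycaemic and 1.30 in hypoglycaemic livers, so its probes disagree. The brighter probe of Slc19a3 was well above background on 2 of 5 wild-type, 2 of 3 normoglycaemic and 4 of 7 hypoglycaemic arrays. Of 24 ATF4 target genes, which respond to amino acid shortage, 21 were above 0 (median 0.24), against 54.0% of all genes, with 2 at an unadjusted p under 0.05, against 3.51%. Their median was 0.13 in normoglycaemic and 0.31 in hypoglycaemic livers, and the median of the KO mean was 0.20 with blood glucose as a term. Among the genes of smallest p that were higher, Amotl1, an angiomotin-like protein, differed by 0.53, Asb18, a SOCS box protein, by 0.76, Qtrt1, a tRNA-modifying enzyme, by 0.39, Tchh, the hair protein trichohyalin, by 1.11 and Twist1, a transcription factor of mesenchyme, by 1.07, with adjusted p of 0.464 to 0.604 in limma. Asb18, Tchh and Twist1 were well above background on 2 of 5 wild-type arrays. Pecam1, an endothelial adhesion protein, was 0.21 higher (SE 0.07, adjusted p = 0.728 in limma) with all KO libraries above all wild-type libraries. The margin was narrow, with normoglycaemic replicate 1 at −0.9225 and wild-type replicate 2 at −0.9241.

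A different set of genes parted the KO groups. The groups differed from each other in 15 genes (0.0544%), 6 higher and 9 lower in hypoglycaemic livers. This count was 0 in limma without hypoglycaemic replicate 2, with 5299 genes at an unadjusted p under 0.05, and 0 with the slide as a block, with 5370 such genes. Ppp1r3c, which targets a phosphatase to glycogen, was −0.22 to 1.22 in wild-type, 0.68 to 1.02 in normoglycaemic and −2.32 to −0.29 in hypoglycaemic livers, and Angptl8, an insulin-induced regulator of lipoprotein lipase, was 2.77 to 4.71, 4.50 to 5.05 and 1.58 to 2.94. Depp1, a target of FOXO factors, was 3.65 to 4.59, 3.14 to 4.08 and 4.87 to 6.29. The 29 genes of the glucagon and glucocorticoid response had medians of −0.50 in normoglycaemic and 0.81 in hypoglycaemic livers, and the 25 genes of the urea cycle and amino acid breakdown had −0.43 and 0.31. The means of 0.20 and −0.04 for these lists join groups of opposite sign. G6pc and Pck1, enzymes of glucose production, likewise differed by −1.09 and −0.81 in normoglycaemic and by 0.81 and 0.27 in hypoglycaemic livers.

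**Figure D5:**
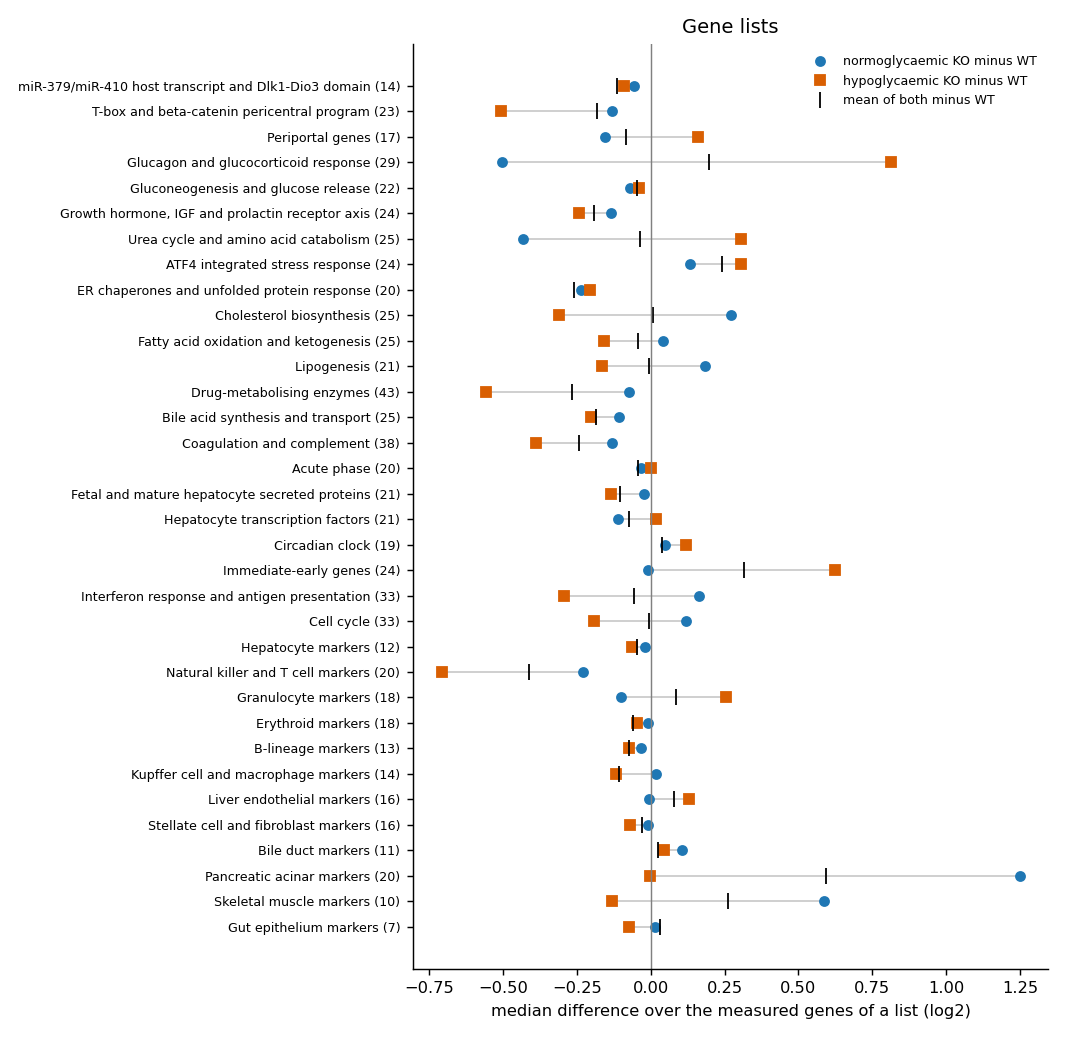
Median difference from wild type (log2, x axis) over the measured genes of each list (rows, number of genes in brackets) in normoglycaemic KO (circles), hypoglycaemic KO (squares) and their mean (ticks). The glucagon and glucocorticoid list has opposite signs in the groups, −0.50 and 0.81, while the natural killer and T cell list lies below 0 in both, −0.23 and −0.71.

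Markers of tissue beside the liver varied between libraries. The mean level of 20 pancreatic acinar genes was above 0 in 3 libraries, at 1.76 in wild-type replicate 2, 4.71 in normoglycaemic replicate 2 and 1.91 in hypoglycaemic replicate 3. Without these 3 libraries Mirg differed by −3.42, Gzma by −1.04 and Cyp2e1 by −1.98. Mirg and the lincRNA then lost their calls (adjusted p = 0.354 in limma for both), and the 1 gene called was another, LOC100505009, which was higher. Ddx3y, a Y-linked gene, was at 1.85 to 2.32 in 5 libraries, 1 of the wild-type, 2 of the normoglycaemic and 2 of the hypoglycaemic group. With its level as a covariate 2 genes were called. Slide 1 held 2 wild-type, 2 normoglycaemic and 4 hypoglycaemic libraries and slide 2 held 3, 1 and 3, and Mirg differed by −3.51 within the first and −3.57 within the second.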

How the data were processed

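Liver RNA of 15 pups was measured on Agilent 1-colour arrays, 1 array per pup. The intensity values came from Agilent Feature Extraction 10.10, per the file headers, with background subtraction and no scaling between arrays. The deposited log2 values, made by the authors with limma per the submitters' processing notes, cover 40048 probes and served as an alternative. They correlate at 0.99986 or more with the log2 median spot signal and have column medians of 7.80, so no background was subtracted in them.

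Levels are log2 processed signal minus log2 of the 75th percentile of that array's spots other than controls. Of 62976 spots, 3671 controls and 176 to 546 marked outliers per array were left out. A probe was kept if well above background on at least 3 arrays (41153 of 55681 probes), and the probe of highest mean stood for a gene. Probes were named by accession (27235), symbol (3581) or synonym (565), or kept the file's name (24300). A model of 3 group means was fitted in limma 3.58.1 (R 4.3.3) (degrees of freedom: 12 residual, 1.84 prior), and p-values were adjusted by Benjamini-Hochberg over all genes (threshold 0.05). Group contrasts share the wild-type libraries. Mirg was also compared by an exact permutation test.

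Named genes were, per direction, the called genes or, where these were few, the 8 of smallest p (said not to pass), the leading member of each list, the genes called between the KO groups, and a fixed set; others were added after their values were seen (natural killer genes beyond the list's first, genes called without hypoglycaemic replicate 2, Adh4, Rdh16, F7, Slc19a3 and the like). 1 gene that this rule names is not reported here, and leading members of lists that the text does not describe were left out. The members and lists were chosen with earlier results of these data known. The Mirg interval is that in the array's own transcript name. The fit was tested on simulated data. The alternatives without the pancreas-rich libraries, by single probe, and without hypoglycaemic replicate 2 with the slide as a block were chosen after seeing the data. Alternatives covered scaling, background, filters, probe choice, slide, covariates and each library left out.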

Additional observations from a re-analysis of the deposited data

Results flagged for a closer look

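In the groups of 5 and 7 libraries, about 1 in 20 groups has a value this far from the rest by chance (Dixon's test at the 95% level). All named genes were looked at, so several such values come by chance. Hypoglycaemic KO replicate 2 was such a value for 3 genes, Cd3g at −2.60, Fgf1 at 2.42 and Prlr at 0.17, each the highest of its group. Cd3g and Fgf1 were named because they were called without this library, so its place in them is no separate result. Prlr was also far above its group in wild-type replicate 2, at 0.93. In the other hypoglycaemic libraries Depp1 stood out at 6.29 in replicate 5 and Dio3 at −2.73 in replicate 4. Among wild-type libraries Ddx3y stood out at 2.01 in replicate 3, G6pc at 6.03 in replicate 2 and Plppr1, a membrane phosphatase-related protein of neurons, at −1.22 in replicate 4.

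In 7 named genes the hypoglycaemic and normoglycaemic KO groups differed from each other at an adjusted p under 0.05 in limma. Without hypoglycaemic replicate 2 none of these 7 passed (adjusted p of 0.0805 to 0.0886 in limma), and with the slide as a block 0 genes were called. Lower in hypoglycaemic livers were Agap2 (−0.71), Angptl8 (−2.50), Ppp1r3c (−2.48) and Prl7b1 (−3.66), and higher were Depp1 (1.89), Ip6k2 (1.25) and Mapk15 (0.80). Prl7b1 was well above background on no wild-type or hypoglycaemic array and on all 3 normoglycaemic arrays.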

How the results depend on the processing

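The direction of Mirg held in every alternative run, and leaving out 1 library moved its difference only between −3.72 and −3.41. Its call did not hold in the same way, since the adjusted p lay at 0.0469. The number of genes called for the KO mean was 2. Leaving out 1 library gave 0 to 7, with 7 only without hypoglycaemic replicate 2 (6 with the slide as a block as well) and 0 in each of 14 other cases. It was 0 with all KO libraries as 1 group, with no filter on dim probes and with the slide as a block. It was also 0 within slide 1 and with the slide row or blood glucose as a term. The count was 1 with quantile normalization, with the mean of a gene's probes or without the 3 pancreas-rich libraries. With quantile normalization the lincRNA kept its call (adjusted p = 0.046 in limma) and Mirg lost it (0.051). With the mean of probes both lost their calls (0.052 for Mirg, 0.055 for the lincRNA). The gene called there was another transcript with probes in the Mirg interval. Without the pancreas-rich libraries it was LOC100505009, which is neither of the 2. The count was 8 with each probe tested alone and 14 with array weights. At an unadjusted p under 0.05 these fits without a call had 837 to 2927 genes, 2773 with blood glucose as a term. Same changes in both KO groups numbered 1, 0 to 3 with 1 library left out, 2 without hypoglycaemic replicate 2 with the slide as a block, 8 with array weights, and 0 with quantile normalization, no filter, the slide as a block, within either slide, or the slide row or glucose as a term. Calls between the KO groups numbered 15, 0 to 947 with 1 library left out (947 without hypoglycaemic replicate 4, 301 without wild-type replicate 2), 151 with normexp background, 31 on the deposited values, 4 with no filter, 98 with the stricter filter, 9 with the mean of probes, 0 with the slide as a block (0 also without hypoglycaemic replicate 2), 0 within slide 1, 3 within slide 2, 0 with glucose as a term, 211 with the Ddx3y level as a term, 203 with trend and robust moderation, 2102 with array weights and 0 without the pancreas-rich libraries. Genes without overlap numbered 53, 56 to 278 with 1 library left out (278 without wild-type replicate 1), 1459 and 2081 within slides 1 and 2, where fewer libraries are compared, and 168 without the pancreas-rich libraries. The cause of these moves was not tested beyond the smaller number of libraries.

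Replicate numbers were not taken to pair the libraries: of 11 pairs with 1 number, 6 deviated together at r over 0.1, from −0.175 to 0.316. Pairs of number 1 were at 0.163 to 0.272, those of number 2 at 0.0704 to 0.316 and those of the other numbers at −0.175 to 0.122. Pairs of unlike numbers were not set beside them, so these values cannot settle whether the numbers pair libraries. With the replicate block 0 genes were called for the KO mean (2436 at an unadjusted p under 0.05), 0 were the same in both groups and 0 were called between the KO groups.

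The following differences of single genes, 0 of them called, changed sign. With the Ddx3y level as a term the difference was 0.046 for Angptl8. With all KO libraries as 1 group the difference was 0.24 for G6pc, 0.20 for Ip6k2, 0.0066 for Mapk15 and 0.0060 for Prf1. With array weights the difference was 0.12 for Rtl1. With blood glucose as a term the difference was 0.051 for Afp, 0.26 for Ahsp, 0.12 for Alb, 0.37 for Angptl8, 0.14 for Apob, −0.24 for Cdx1, −0.047 for Ddit4, −5.31 for Ddx3y, 0.66 for Dio3, 0.022 for Iigp1, 0.094 for Lrat, −0.33 for Pdk4 and 0.38 for Ppp1r3c. With quantile normalization the difference was 0.0016 for Afp. With the replicate block the difference was 0.15 for Angptl8. With the slide as a block the difference was 0.013 for Alb and 0.012 for Ip6k2. Within slide 1 the difference was 0.046 for Afp, 0.083 for Alb, 0.085 for Angptl8, −0.35 for Cdx1, −0.046 for Depp1, 0.023 for Ip6k2 and 0.033 for Prf1. Within slide 2 the difference was 0.053 for Blnk and 0.041 for Ip6k2. Without hypoglycaemic replicate 2 and with the slide as a block the difference was 0.014 for Alb and 0.0061 for Ip6k2. Without the pancreas-rich libraries the difference was 0.13 for Ncr1. With 1 library left out, Alb ran from −0.084 to 0.021, Angptl8 ran from −0.28 to 0.20, G6pc ran from −0.36 to 0.099, Ip6k2 ran from −0.13 to 0.047, Ncr1 ran from −0.61 to 0.044 and Prf1 ran from −0.084 to 0.0055. The cause was not tested.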
